A study of Mus musculus with 10 samples.

Results

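Cadherins and protocadherins are calcium-dependent adhesion molecules of the cell surface. The genes described here are all entries of the expression table whose symbol is Cdh followed by a number or begins with Pcdh, without Cdh5 of blood vessels and Cdh19 of glia. This gave 45 of the 12575 genes in the table. They comprise 2 type I classical cadherins, 11 type II classical cadherins, Cdh13, 11 non-clustered protocadherins and 20 clustered protocadherins, and the last of these are Pcdha11, 18 Pcdhb genes and Pcdhgc4. RNA was sequenced from cortical tissue of 5 BMAL1 aKO and 5 Cre- mice of the C57BL/6 strain, labelled as 4 months old. BMAL1 aKO mice carry Aldh1l1-CreERT2 and Bmal1 fl/fl alleles. Cre- mice are littermates with Bmal1 fl/fl alleles and no Cre, and both genotypes received tamoxifen, so the groups share the floxed alleles and the drug. The Aldh1l1 promoter directs the recombinase to astrocytes, and the tissue also holds neurons, other glia and vessels with intact Bmal1. In such bulk tissue, fewer cells of a type and less RNA per cell cannot be told apart. The comparison of BMAL1 aKO with Cre- asks how cortical transcripts differ after loss of the clock transcription factor BMAL1 from astrocytes.

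Classical cadherins span the membrane and bind the same or a related cadherin on the facing cell, while their cytoplasmic tails hold catenins that connect to actin. Type II cadherins mark layers, areas and circuits of the developing and adult brain. Non-clustered protocadherins do not bind catenins in the same way, and their delta1 and delta2 branches differ in the number of extracellular repeats and in short tail motifs. The clustered protocadherins lie in 3 neighbouring arrays, alpha, beta and gamma, from which each neuron chooses a few isoforms by promoter choice, giving neurites an identity used in self-avoidance. Genes of the alpha and gamma arrays splice variable first exons to shared constant exons, whereas beta genes are single exons.

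BMAL1 and its partner CLOCK bind E-boxes, of which CACGTG is the canonical form. The 250 bases before the annotated start were available for 19 of the 45 genes, none of them in the clustered arrays, from RefSeq on GRCm38.p6. CACGTG was found in 0 of these 19 genes and in 6.86% of 27025 genes. The looser word CANNTG was found in 10 of the 19 genes (52.6%) and in 69.3% of all genes. Both words read the same on either strand, every CACGTG is also a CANNTG, and a gene with several starts was counted once if any start held the word. The sequences of Cdh8 and Pcdh10 are shown because these were the 2 genes whose BMAL1 aKO and Cre- libraries did not overlap in level. Both were lower in BMAL1 aKO, where 0.382% of all genes were apart in this direction, and the gap for Pcdh10 was narrow. The sequences run 5′ to 3′ on the gene's strand and end at the base before the start, with CANNTG in capitals. Cdh8 lies on the minus strand (chr8:99416472-99416721) and Pcdh10 on the plus strand (chr3:45378148-45378397).
Cdh8: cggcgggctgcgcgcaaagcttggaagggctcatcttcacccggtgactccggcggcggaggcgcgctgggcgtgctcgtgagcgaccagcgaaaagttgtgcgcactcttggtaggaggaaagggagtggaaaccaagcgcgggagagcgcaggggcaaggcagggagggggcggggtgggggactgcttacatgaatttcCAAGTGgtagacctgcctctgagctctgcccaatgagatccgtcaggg
Pcdh10: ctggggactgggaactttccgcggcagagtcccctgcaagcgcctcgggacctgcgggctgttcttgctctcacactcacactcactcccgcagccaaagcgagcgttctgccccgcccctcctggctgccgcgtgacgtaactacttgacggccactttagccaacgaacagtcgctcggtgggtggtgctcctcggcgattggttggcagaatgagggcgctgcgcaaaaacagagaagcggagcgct
The Cdh8 window held CANNTG once and the Pcdh10 window did not hold it. A match in this window is a description of letters and says nothing of binding.

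Levels are given as CPM, reads scaled to the same total in each library, and the 10 libraries held 21844770 to 48295715 reads. Arntl, the gene for BMAL1, lay between 31.9 and 37.1 CPM in Cre- and between 31.1 and 38.8 CPM in BMAL1 aKO, so whole tissue did not separate the groups by the targeted gene (limma log2 change 0.01, adjusted p = 0.932). Fabp7, a fatty acid binding protein of astrocytes, separated them fully, at 9.94 to 19.9 CPM without Cre and 90.8 to 236.6 CPM with it. Cre- replicate 3 stood apart, with the highest level of all 10 libraries for 14 of the 45 genes and the lowest for 9. Its summed level of 9 striatal marker genes was 2146 CPM, against 509 to 1293 CPM in the other 9 libraries, and its summed level of 7 neuronal markers was the lowest at 6329 CPM, against 7182 to 8595 CPM. Summed astrocyte markers ran from 7173 to 8912 CPM in Cre- and from 8258 to 9996 CPM in BMAL1 aKO, and of 11 marker lists only the astrocyte list held a gene past the threshold, Gja1, 1 of its 12. The fit gave each library a quality weight, lowest for Cre- replicate 3 at 0.181 and highest for Cre- replicate 1 at 7.19, so a fitted change can differ from the difference of plain means and both are given. Cre- replicates 2, 4 and 5 had weights of 0.454, 0.519 and 1.52. The fitted Cre- levels therefore rested mostly on Cre- replicate 1, although 5 libraries entered. BMAL1 aKO replicate 3 is named at several results because leaving it out moved the number of genes past the threshold from 42 to 844. This library had the lowest Fabp7 of its group, 90.8 CPM against 136.6 to 236.6 CPM in the others. Its Gfap, an astrocyte gene, was at 134.0 CPM, against 159.5 to 278.7 CPM in the other BMAL1 aKO libraries. The Cre- range of Gfap was 108.9 to 138.5 CPM. How this bears on the number of genes was not tested. Scaling by TMM factors, which correct for differences in RNA composition, moved the median change of all genes from -0.04 to -0.00211 on the log2 scale.

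None of the 45 genes passed an adjusted p of 0.1 in BMAL1 aKO against Cre- (limma), where 0.334% of 12573 genes tested did, 0.0477% in the lower direction. At an unadjusted p below 0.05, limma placed 8 of the 45, all lower in BMAL1 aKO, against 16.8% of all genes in either direction and 10.0% in the lower direction. The fitted change was below 0 for 34 of the 45 genes, against 61.6% of all genes, and with TMM scaling for 28 of the 45, against 50.7%. The median change was -0.14 on the log2 scale for the 45 genes and -0.04 for all genes, and with TMM scaling it was -0.09 and -0.00211. More of the genes thus lay below 0 than above it, and no single gene passed the test. The summed level of the 45 genes was 2514 ± 267.6 CPM in Cre- against 2299 ± 68.9 CPM in BMAL1 aKO (SD, n = 5 each). Cre- libraries held 2493, 2287, 2924, 2595 and 2270 CPM, and BMAL1 aKO libraries 2256, 2416, 2276, 2245 and 2303 CPM. The groups overlapped, and the highest sum was that of Cre- replicate 3. Markers of cortical excitatory neurons also had a median change below 0, -0.13 over 10 genes, of which 3 had an unadjusted p below 0.05 and none passed the adjusted threshold, and their summed level ran from 4710 to 7254 CPM in Cre- libraries and from 5132 to 7319 CPM in BMAL1 aKO libraries. Striatal markers had a median change of -0.18, with 509 to 2146 CPM in Cre- and 740 to 1293 CPM in BMAL1 aKO libraries, while the 7 neuronal markers had a median of -0.00344. The part of these in the changes of the 45 genes was not tested.

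With all 10 libraries no other fit placed any of the 45 genes past the adjusted threshold, and the number lower at an unadjusted p below 0.05 ran from 2 to 9. Without quality weights it was 2 (2.27% of all genes), with voomWithQualityWeights on whole reads 5 (3.8%), with TMM scaling 6 (6.15%), with the replicate number as a block 7 (10.1%) and with the Xist level as a covariate 9 (4.33%). With 1 library left out, the number in either direction ran from 2 without Cre- replicate 1 (4.7% of all genes) to 11 without BMAL1 aKO replicate 2 (22.0%). Without BMAL1 aKO replicate 3, 7 of the 45 passed the adjusted threshold, all lower. They were Cdh6, Cdh8, Cdh18, Pcdh7, Pcdh9, Pcdhb14 and Pcdhb21. In that fit 6.71% of all genes passed and 4.02% passed in the lower direction. Of the 844 genes, 339 were higher and 505 lower, and with TMM scaling as well 425 passed, of which 283 were higher and 142 lower. With both changes 3 of the 45 remained past the threshold, Cdh18, Pcdh7 and Pcdh9, against 1.13% of all genes in the lower direction.

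**Figure D1:**
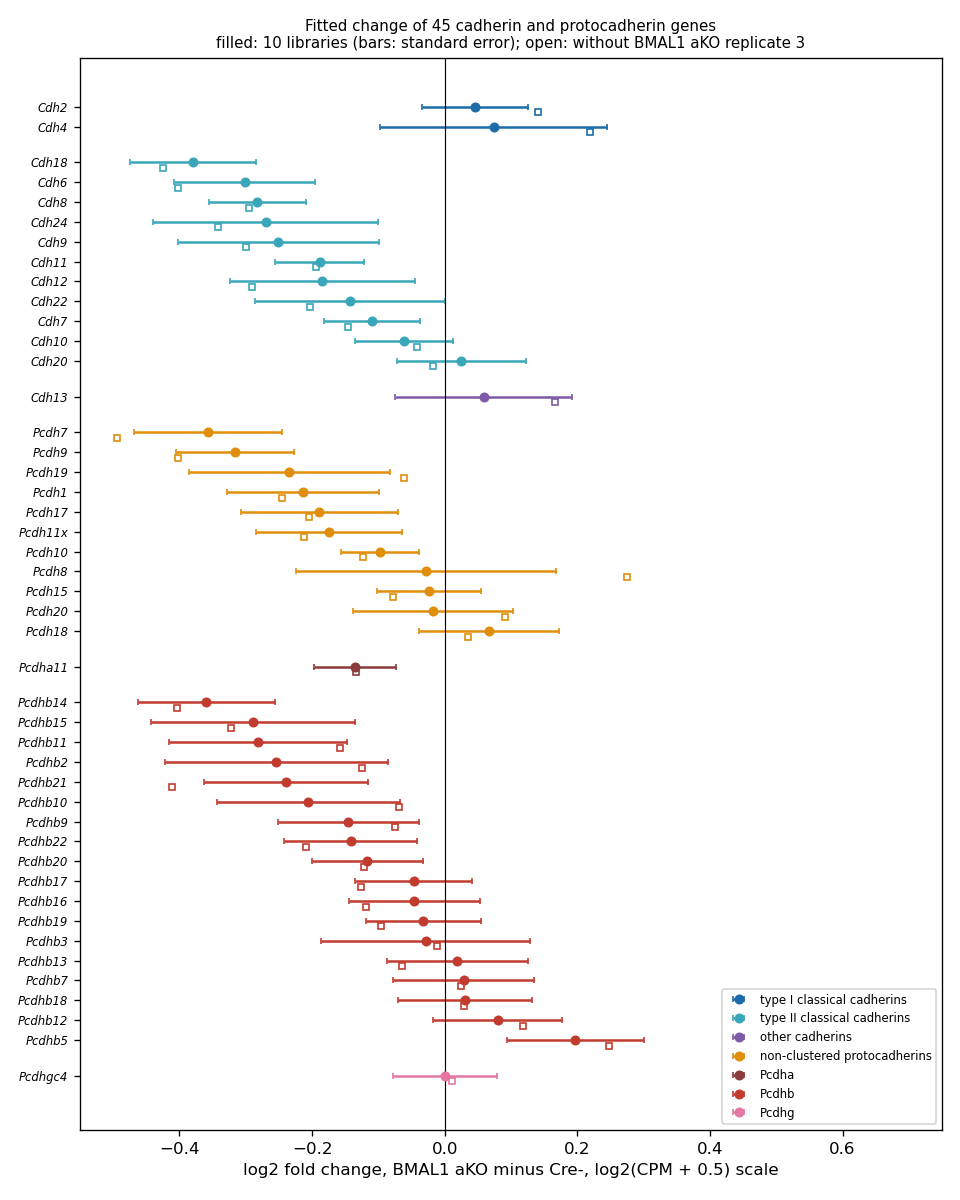
Fitted log2 change of each of the 45 genes (horizontal axis, BMAL1 aKO minus Cre- on the log2(CPM + 0.5) scale), grouped and coloured by class, with filled circles and standard error bars for 10 libraries and open squares for the fit without BMAL1 aKO replicate 3. Of the filled circles 34 lie below 0, and Cdh18 lies lowest at -0.38.

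Type II classical cadherins, which bind through a paired tryptophan exchange and sort neurons into pools and layers, mostly had fitted changes below 0. Of the 11 genes, 10 had a fitted change below 0, against 61.6% of all genes, and none passed the adjusted threshold. Cdh6, Cdh8, Cdh11 and Cdh18, 4 genes, had an unadjusted p below 0.05 (limma), all lower, against 10.0% of all genes lower. That number was 2 without quality weights (2.27% of all genes), 2 with voomWithQualityWeights (3.8%) and 3 with TMM scaling (6.15%). With weights the median change of the class was -0.19, and -0.15 with TMM scaling. The summed level of the class was 340.7 ± 12.4 CPM in Cre- against 308.9 ± 19.1 CPM in BMAL1 aKO (SD, n = 5 each), with Cre- libraries between 324.1 and 355.7 CPM and BMAL1 aKO libraries between 280.5 and 332.3 CPM. All 11 genes had a lower mean CPM in BMAL1 aKO, in some by far less than the spread, as did 64.4% of all genes.

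Cdh8, a cadherin of cortical and striatal projection neurons, was at 36.4, 39.0, 38.4, 36.6 and 39.8 CPM in Cre- and at 32.4, 24.9, 31.8, 32.3 and 29.7 CPM in BMAL1 aKO. Every BMAL1 aKO library lay below every Cre- library, as was so for 0.382% of all genes in this direction, and 0.62% of all genes were separated in the higher direction, with none of the 45 among them. The fit gave a change of -0.28 ± 0.07 (SE, limma, adjusted p = 0.154), and the difference of plain means on the log2 scale was -0.33 (two-sided exact permutation p = 0.00794, the smallest that 5 against 5 can give). Groups that do not overlap always give this p, so it only restates the separation. After TMM scaling the groups still did not overlap, with 33.8 CPM as the highest BMAL1 aKO value and 34.3 CPM as the lowest Cre- value. The adjusted p was 0.0779 without BMAL1 aKO replicate 3, and it ran up to 0.868 over the alternatives.

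Cdh18 was at 18.0, 13.8, 16.9, 16.5 and 14.2 CPM in Cre- and at 14.5, 12.4, 14.0, 12.9 and 11.6 CPM in BMAL1 aKO. The groups overlapped between 13.8 and 14.5 CPM. It had the largest fitted fall of the 45 genes, -0.38 ± 0.10 (SE, limma, adjusted p = 0.149), and a plain difference of -0.27 (two-sided exact permutation p = 0.0397, n = 5 each). Without quality weights Cdh8 fell most of the 45, at -0.33, and Cdh18 was at -0.27. The weighted change of Cdh18 was -0.43 when BMAL1 aKO replicate 3 was left out (limma, adjusted p = 0.0688). Cdh6, a cadherin of restricted neuronal pools, was at 22.2, 16.4, 15.6, 22.0 and 20.9 CPM in Cre- and at 20.1, 13.8, 20.6, 15.4 and 17.0 CPM in BMAL1 aKO. Its groups overlapped over most of their range, with a fitted change of -0.30 (limma, adjusted p = 0.202) and a plain difference of -0.16 (two-sided exact permutation p = 0.286, n = 5 each). Its adjusted p was 0.0720 without BMAL1 aKO replicate 3 (limma).

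The remaining 8 type II genes overlapped between groups. Cdh22 had the highest level of the class per kilobase of exon, 9.29 CPM per kb, and lay between 24.8 and 61.8 CPM in Cre- and between 23.8 and 39.8 CPM in BMAL1 aKO. The 61.8 CPM belonged to Cre- replicate 3, and the fitted change was -0.14 (limma, adjusted p = 0.619). The others, Cdh7, Cdh9, Cdh10, Cdh11, Cdh12, Cdh20 and Cdh24, had fitted changes from -0.27 (Cdh24) to 0.02 (Cdh20). Cdh12 was lowest of all libraries in Cre- replicate 3 at 16.5 CPM, against 19.8 to 45.5 CPM elsewhere.

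**Figure D2:**
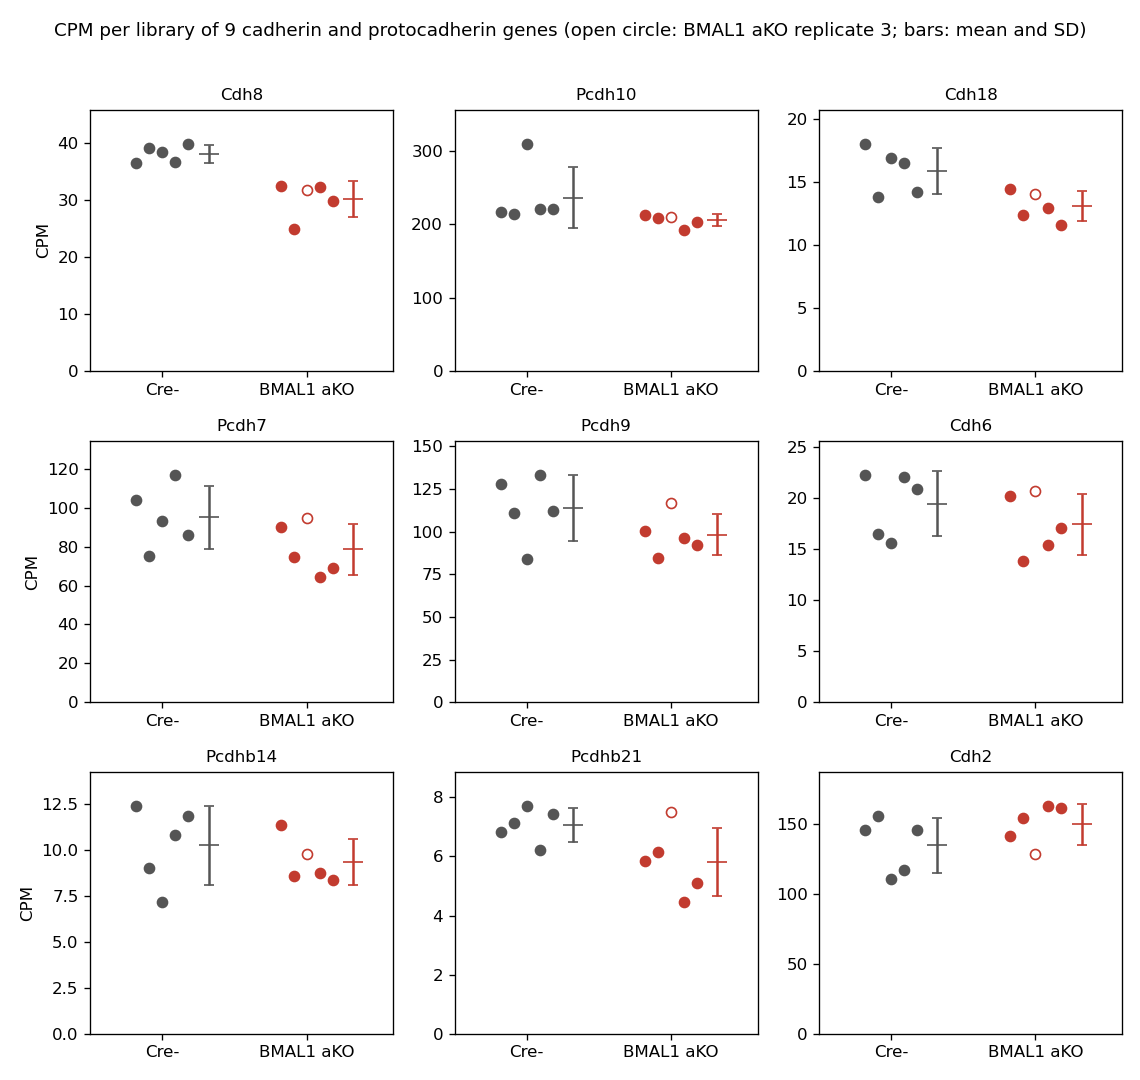
CPM per library (vertical axis, from 0) of 9 genes in Cre- (grey) and BMAL1 aKO (red), with an open circle for BMAL1 aKO replicate 3 and the mean with its SD beside the points (n = 5 each). The groups are apart for Cdh8, narrowly for Pcdh10, where 213.1 CPM faces 214.2 CPM, and overlap in the other panels.

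The 2 type I classical cadherins, which form strong adherens junctions, did not share the lower direction. Cdh2, the N-cadherin of synapses and of contacts between astrocytes and neurons, was at 145.8, 155.8, 110.5, 117.0 and 145.7 CPM in Cre- and at 141.7, 154.3, 129.1, 163.1 and 162.1 CPM in BMAL1 aKO. The groups overlapped, with a fitted change of 0.05 ± 0.08 (SE, limma, adjusted p = 0.785) and a plain difference of 0.16 (two-sided exact permutation p = 0.214, n = 5 each). Per kilobase of exon Cdh2 was the highest classical cadherin, at 17.7 CPM per kb. Cdh4, the R-cadherin, lay between 20.1 and 59.8 CPM in Cre- and between 23.6 and 46.3 CPM in BMAL1 aKO, with a fitted change of 0.07 (limma, adjusted p = 0.850). Cdh13, the T-cadherin, is held by a lipid anchor and lacks the catenin-binding tail. It lay between 62.2 and 110.3 CPM in Cre- and between 71.3 and 119.6 CPM in BMAL1 aKO, with a fitted change of 0.06 (limma, adjusted p = 0.846). For these 3 genes the fitted sign turned in at least 1 alternative.

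Of the 11 non-clustered protocadherins, 10 had a fitted change below 0 (61.6% of all genes), and 8 with TMM scaling (50.7%). None passed the adjusted threshold. Pcdh7 and Pcdh9 had an unadjusted p below 0.05 (limma), both lower, against 10.0% of all genes lower. Without quality weights no gene of the class did, against 2.27% of all genes lower. With weights the median change was -0.17, and -0.14 with TMM scaling. The summed level was 918.8 ± 138.5 CPM in Cre- against 796.1 ± 44.3 CPM in BMAL1 aKO (SD, n = 5 each), and the groups overlapped. The 4 delta1 genes, Pcdh1, Pcdh7, Pcdh9 and Pcdh11x, all had a fitted change below 0 with a median of -0.26. The 5 delta2 genes, Pcdh8, Pcdh10, Pcdh17, Pcdh18 and Pcdh19, had a median of -0.10 with 4 below 0. These branches were not tested against each other.

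Pcdh7, a delta1 protocadherin whose tail can bind a phosphatase, was at 103.7, 74.9, 93.3, 116.8 and 86.0 CPM in Cre- and at 89.9, 74.5, 94.6, 64.5 and 69.2 CPM in BMAL1 aKO. The groups overlapped, and the highest BMAL1 aKO value was that of replicate 3. The fitted change was -0.36 ± 0.11 (SE, limma, adjusted p = 0.183) and the plain difference -0.27 (two-sided exact permutation p = 0.119, n = 5 each). Without BMAL1 aKO replicate 3 the fitted change was -0.49 (limma, adjusted p = 0.0541). A gene on the opposite strand overlaps 21.1% of the exon length of Pcdh7, and the library kit does not mark strand.

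Pcdh9, another delta1 gene of cortical neurons, was at 128.1, 111.1, 83.7, 133.2 and 112.2 CPM in Cre- and at 100.6, 84.4, 116.8, 96.4 and 92.3 CPM in BMAL1 aKO. Here the lowest of all 10 libraries was Cre- replicate 3, and BMAL1 aKO replicate 3 was again the highest of its group. The fit gave -0.32 ± 0.09 (SE, limma, adjusted p = 0.176) and the plain difference -0.20 (two-sided exact permutation p = 0.198, n = 5 each). Leaving out BMAL1 aKO replicate 3 gave -0.40 and the smallest adjusted p among the 45 genes, 0.0491 (limma).

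Pcdh10, a delta2 protocadherin known from axon growth and synapse removal, was at 216.5, 214.2, 309.7, 220.2 and 221.2 CPM in Cre- and at 213.1, 208.0, 209.8, 192.1 and 203.5 CPM in BMAL1 aKO. The groups did not overlap, by a gap of about 1 CPM. Weighted by library, the change was -0.10 ± 0.06 (SE, limma, adjusted p = 0.405). The plain difference was -0.19, in which the 309.7 CPM of Cre- replicate 3 takes part. Its two-sided exact permutation p of 0.00794 (n = 5 each) follows from the lack of overlap and adds no support. After TMM scaling the groups overlapped, with a highest BMAL1 aKO value of 222.7 CPM and a lowest Cre- value of 206.7 CPM.

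Pcdh1, a delta1 gene, had the highest level of the class per kilobase of exon at 22.3 CPM per kb. It lay between 134.7 and 332.9 CPM in Cre- and between 145.5 and 217.9 CPM in BMAL1 aKO, with a fitted change of -0.21 (limma, adjusted p = 0.356) and the top value in Cre- replicate 3. The other 7 genes, Pcdh8, Pcdh11x, Pcdh15, Pcdh17, Pcdh18, Pcdh19 and Pcdh20, overlapped between groups and had fitted changes from -0.23 (Pcdh19) to 0.07 (Pcdh18). Pcdh8, also known as arcadlin and induced by neuronal activity, moved from -0.03 to 0.27 when BMAL1 aKO replicate 3 was left out, and that library held its lowest value, 12.5 CPM.

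The 20 clustered protocadherins had a median change of -0.08, and -0.04 with TMM scaling. The change was below 0 for 14 of them, against 61.6% of all genes. With TMM scaling it was below 0 for 10, against 50.7%. None passed the adjusted threshold. Pcdha11 and Pcdhb14 had an unadjusted p below 0.05 (limma), both lower, against 10.0% of all genes in the lower direction. GENCODE M21 places 13 alpha, 22 beta and 22 gamma genes in these arrays on chromosome 18, and the table held 1 alpha, 18 beta and 1 gamma entry. Pcdha11 and Pcdhgc4 share 53.4% and 37.9% of their exon length with other genes of their arrays in that annotation. Which reads of the constant exons these entries hold was not tested, so their values are read as those of the entries and not of single isoforms.

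Pcdhgc4, the gamma entry, had the highest CPM of the 45 genes. It was at 573.4, 540.8, 864.9, 717.0 and 515.4 CPM in Cre- and at 576.7, 630.4, 554.0, 542.5 and 597.0 CPM in BMAL1 aKO. The BMAL1 aKO values all lay within the range of Cre-, whose top value was that of replicate 3. The fitted change was 0.00 ± 0.08 (SE, limma, adjusted p = 0.995), while the plain difference was -0.12 (two-sided exact permutation p = 0.484, n = 5 each). Pcdha11, the alpha entry, was at 227.8, 224.3, 170.4, 222.0 and 215.1 CPM in Cre- and at 185.8, 189.3, 208.2, 203.5 and 220.1 CPM in BMAL1 aKO. Cre- replicate 3 was the lowest of all libraries, and 4 of the 5 BMAL1 aKO values lay below the other 4 Cre- values. The fitted change was -0.14 ± 0.06 (SE, limma, adjusted p = 0.289) and the plain difference -0.07 (two-sided exact permutation p = 0.460, n = 5 each).

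The beta genes were low, with means of 3.34 to 16.6 CPM in Cre-. The fitted change was below 0 for 13 of the 18, and for 9 with TMM scaling, against 61.6% and 50.7% of all genes. The summed level of the beta genes was 151.3 ± 4.4 CPM in Cre- against 140.9 ± 9.0 CPM in BMAL1 aKO (SD, n = 5 each). Pcdhb14 was at 12.4, 9.02, 7.19, 10.8 and 11.9 CPM in Cre- and at 11.4, 8.59, 9.77, 8.73 and 8.35 CPM in BMAL1 aKO. The lowest of all 10 was Cre- replicate 3, and the groups overlapped, with a fitted change of -0.36 ± 0.10 (SE, limma, adjusted p = 0.176) against a plain difference of -0.11 (two-sided exact permutation p = 0.492, n = 5 each). Its adjusted p was 0.0860 without BMAL1 aKO replicate 3 (limma).

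Pcdhb21 was at 6.83, 7.14, 7.71, 6.22 and 7.43 CPM in Cre- and at 5.84, 6.15, 7.50, 4.45 and 5.09 CPM in BMAL1 aKO. Only BMAL1 aKO replicate 3 lay inside the range of Cre-. With all libraries its fitted change was -0.24 (limma, adjusted p = 0.338) and the plain difference -0.28 (two-sided exact permutation p = 0.0635, n = 5 each). Without that library the fitted change was -0.41 (limma, adjusted p = 0.0753). Leaving out the only library that overlapped separates the groups by itself, so no permutation p is read there. Pcdhb21 and Pcdhb22 overlap in the annotation and share 7.73% and 5.39% of their 100-base windows. Pcdhb11 lay between 3.52 and 4.71 CPM in Cre- and between 2.81 and 4.45 CPM in BMAL1 aKO (fitted change -0.28, limma, adjusted p = 0.307). Pcdhb12 had the highest beta level per kilobase of unshared exon, 6.82 CPM per kb. Over all exons it was at 2.49 CPM per kb and did not rank highest, with Pcdhb20 at 4.33 CPM per kb. A gene on the opposite strand overlaps 63.5% of the exon length of Pcdhb12, and the library kit does not mark strand. The fitted change of Pcdhb12 was 0.08 (limma, adjusted p = 0.690). The other 14 beta genes overlapped between groups, with fitted changes from -0.29 (Pcdhb15) to 0.20 (Pcdhb5).

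**Figure D3:**
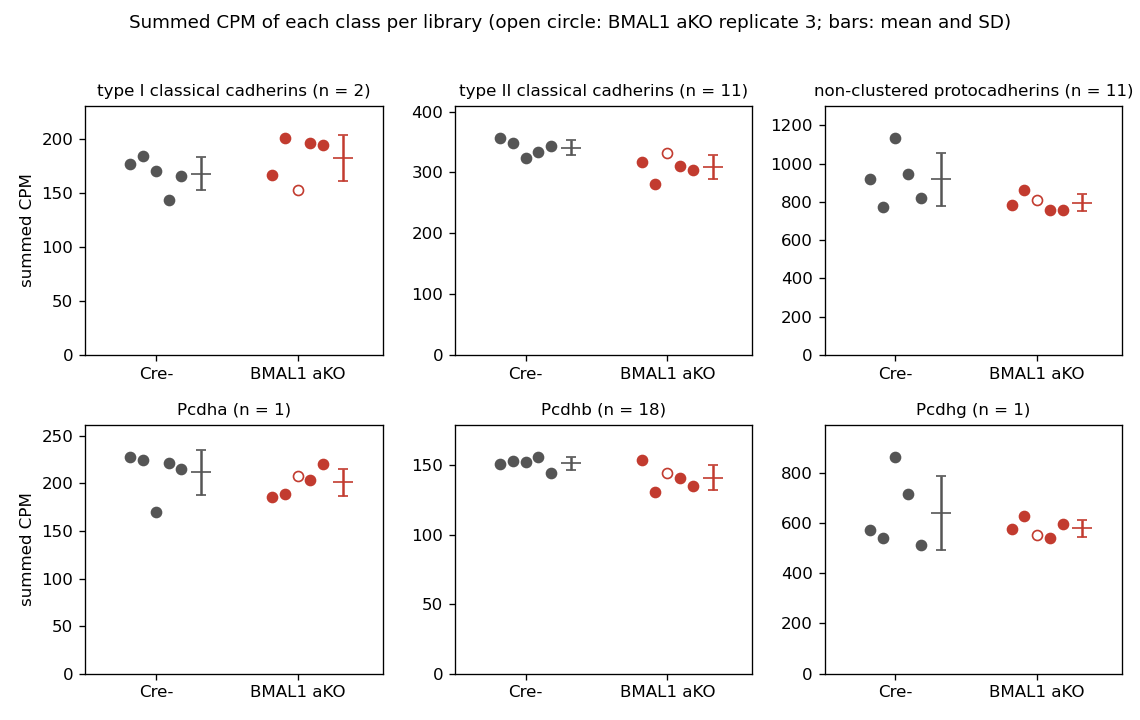
Summed CPM per library (vertical axis, from 0) of 6 classes in Cre- (grey) and BMAL1 aKO (red), with an open circle for BMAL1 aKO replicate 3 and the mean with its SD beside the points (n = 5 each). The groups overlap in every class, type II cadherins spanning 324.1 to 355.7 CPM in Cre- against 280.5 to 332.3 CPM in BMAL1 aKO.

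Set side by side, the median fitted change was -0.18 for the 13 classical cadherins, -0.17 for the 11 non-clustered protocadherins and -0.08 for the 20 clustered protocadherins, with -0.04 over all genes. Without quality weights the medians were -0.11, -0.13 and -0.12, so the clustered genes no longer stood nearest to 0. Summed CPM in Cre- and BMAL1 aKO was 508.8 ± 24.5 and 491.1 ± 11.1 for classical cadherins and 1005 ± 131.2 and 922.4 ± 28.5 for clustered protocadherins (SD, n = 5 each). The plain mean was lower in BMAL1 aKO for 12 of 13 classical, 18 of 20 clustered and 38 of all 45 genes, and for 64.4% of all genes tested. With TMM scaling and no weights, 31 of the 45 had a change below 0, against 51.1% of all genes. Genes of a class share libraries, so these counts are not independent of each other, and no test between classes was made.

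**Figure D4:**
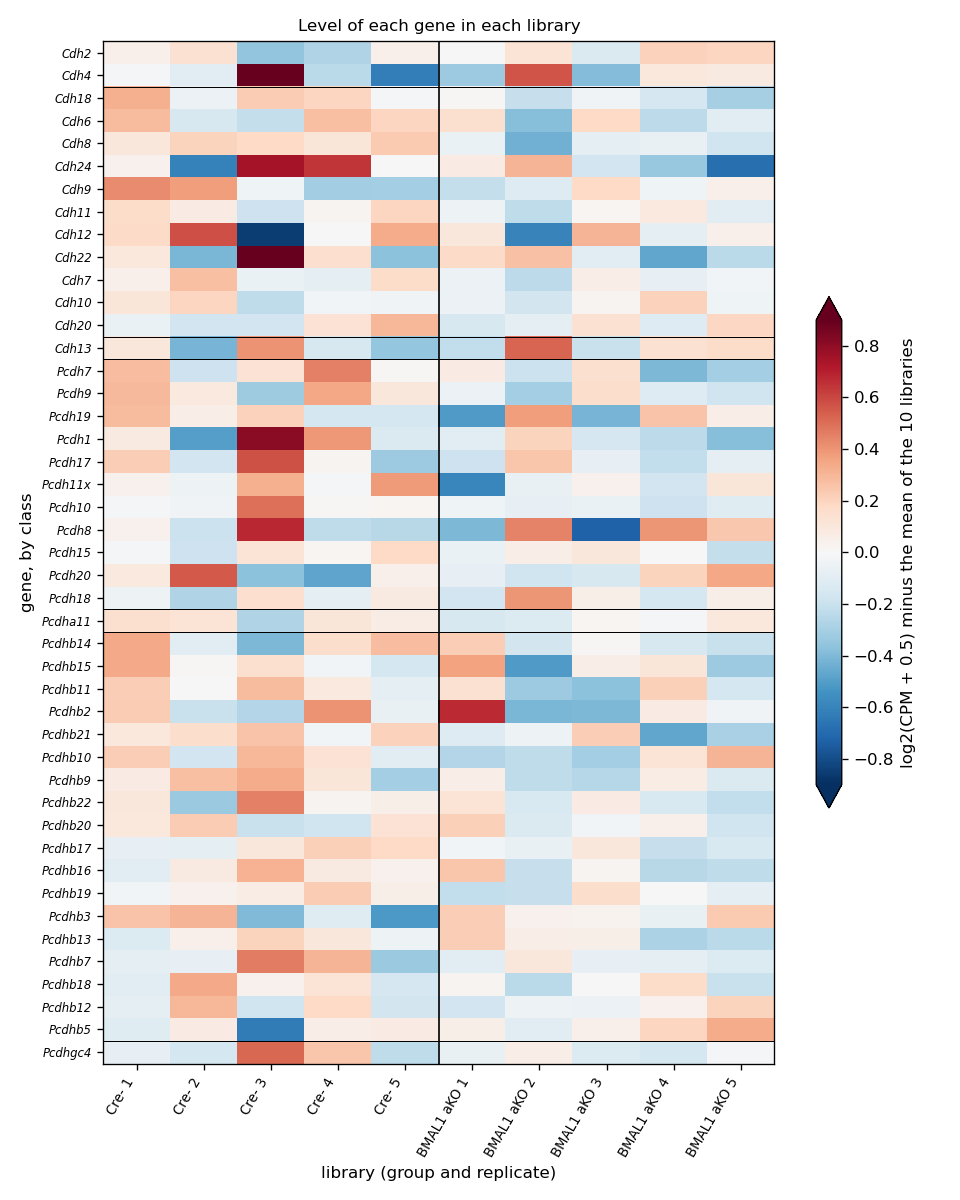
Each gene's log2(CPM + 0.5) in each library minus its mean over the 10 libraries (colour, with values beyond 0.9 drawn in the end colours), with genes by class and a line between Cre- and BMAL1 aKO. Cre- replicate 3 shows the strongest colours in both directions, with the highest level for 14 genes and the lowest for 9.

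Genes that work with cadherins were read from 5 lists. None of the 14 measured catenins and adaptors passed the threshold, and the smallest p values were those of Ctnnd1, the p120 catenin that holds cadherins at the membrane (0.26, limma, adjusted p = 0.230), and Ctnnb1, the beta-catenin (-0.22, limma, adjusted p = 0.307). None of the 13 large and other cadherin superfamily genes passed, with Fat3, an atypical cadherin of neurite shape, at -0.26 (limma, adjusted p = 0.209) and the desmosomal Dsg2 at -0.31 (limma, adjusted p = 0.218). Without BMAL1 aKO replicate 3, Fat3 passed at -0.35 (limma, adjusted p = 0.0751). None of the 18 chromatin genes passed, a list of CTCF, cohesin and silencing factors that act on protocadherin promoters, and its smallest p values were those of the cohesin regulators Pds5a (-0.16, limma, adjusted p = 0.269) and Nipbl (-0.13, limma, adjusted p = 0.278).

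Among 16 signalling partners none passed with all libraries, with Cyfip2 of the WAVE actin complex at -0.23 (limma, adjusted p = 0.194) and the phosphatase subunit Ppp1ca at -0.32 (limma, adjusted p = 0.244). Without BMAL1 aKO replicate 3, 3 of them passed, in a fit where 6.71% of all genes did. Marcks, an actin-binding membrane substrate of protein kinase C, was higher (0.39, limma, adjusted p = 0.0336), and Cyfip2 and Ppp1ca were lower (limma, adjusted p = 0.0666 and 0.0981). With TMM scaling added, Marcks alone passed (limma, adjusted p = 0.0377), with Cyfip2 at 0.103 and Ppp1ca at 0.135 (limma, adjusted p). Of 12 cadherin-cleaving proteases, Mmp14, a membrane metalloproteinase, rose. It was at 5.92, 3.20, 14.0, 8.30 and 5.52 CPM in Cre- and at 26.3, 23.7, 11.9, 15.8 and 12.2 CPM in BMAL1 aKO. Only Cre- replicate 3 reached into the range of BMAL1 aKO. Its change was 1.32 ± 0.20 (SE, limma, adjusted p = 0.0210, and 0.803 without quality weights), with a two-sided exact permutation p of 0.0238 (n = 5 each). The second smallest p of the list was that of Mmp16, at -0.27 (limma, adjusted p = 0.183), and the sheddase Adam10, which cuts N-cadherin and gamma protocadherins, had a change of -0.09 (limma, adjusted p = 0.537).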

How the data were processed

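The values are CPM per gene and library, which the authors deposited after alignment with STAR 2.5.1a to Ensembl release 76 of GRCm38 and counting with featureCounts 1.4.6-p5, per the paper's methods and the submitters' processing notes. Libraries were made from 10 ng of RNA with a kit that does not mark strand. The fit took genes that exceeded 1 CPM in 4 libraries or more, as all 45 members did. Values were taken as log2(CPM + 0.5), so changes of low genes are understated, and modelled in limma (3.58.1, R 4.3.3), which weighted each library by its quality (arrayWeights) and let variance follow expression. Benjamini-Hochberg adjustment ran over all genes with a threshold of 0.1. All 10 labelled libraries entered, whereas the paper's methods give 4 BMAL1 aKO mice and a later age than the labels. The removal of ribosomal genes named there was not repeated. For single genes a two-sided exact permutation test over 252 splits was added. Total reads came from the smallest step of each library's CPM, at which 100% of values were whole within 0.01 read, and counting depth therefore limits precision less than the spread between mice (chi-square per degree of freedom 12.9 to 447.5 between libraries of a group). In data simulated on 12575 genes, the fit found 68.5% of genes given a log2 change of 0.5 and 100% of those given 1. The median number of false calls was 16. The simulation gave every gene and library the same spread beyond counting noise, whereas the real libraries differed widely in quality weight. These shares therefore do not give the power of the real comparison. Positions, overlaps and exon lengths came from GENCODE M21, to which 12550 of the gene names matched. Same-numbered libraries of the groups had correlations of deviations from -0.625 to 0.364, so the numbers were not taken as pairs.

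The members and lists were chosen with earlier results of these data known. Genes named with values were those past the threshold with all libraries or without BMAL1 aKO replicate 3, those whose groups did not overlap, the member of each class with the highest CPM per kb, and the 2 of each class or list with the smallest p. Adam10, Cdh12, Gfap, Pcdh8 and Pcdhb20 were named after their values were seen, as were the ends of ranges. Alternatives were another pseudocount, filter, scaling, weight or threshold, voomWithQualityWeights, a replicate block, Xist as a covariate and each library left out in turn. The 2 alternatives that join TMM scaling with no weights or with a left-out library were added after seeing the data.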

Additional observations from a re-analysis of the deposited data

Results flagged for a closer look

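In 6 of the 90 groups of 5 libraries, a single library lay far from the other 4 of its group, at a gap over range above 0.71. Chance alone gives about 1 in 20. Of the 6, 4 were Cre- replicate 3. It held 309.7 CPM of Pcdh10 against 214.2 to 221.2 CPM in the other Cre- libraries, 33.9 CPM of Pcdh8 against 17.5 to 21.5 CPM, 59.8 CPM of Cdh4 against 20.1 to 30.9 CPM, and 170.4 CPM of Pcdha11 against 215.1 to 227.8 CPM. The other two were BMAL1 aKO replicate 2, with 111.5 CPM of Pcdh17 against 80.3 to 89.2 CPM and 6.65 CPM of Pcdhb7 against 5.63 to 5.83 CPM. The summed striatal markers of Cre- replicate 3 were 2146 CPM, against 509 to 1293 CPM in all other libraries, and their part in these values was not tested.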

How the results depend on the processing

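The number of the 45 genes past the threshold stayed at 0 under every alternative that kept all 10 libraries. Leaving out 1 library gave 0 to 7 members called, all of the 7 lower, and only the omission of BMAL1 aKO replicate 3 gave any, with 3 when TMM scaling was added. Over all genes, 42 became 844 without BMAL1 aKO replicate 3 and 1 without Cre- replicate 1. Quality weights did not converge without Cre- replicate 1 or without Cre- replicate 5, where 5 genes passed. The counts were 54, 19 and 15 without Cre- replicates 2, 3 and 4, and 23, 52, 10 and 30 without BMAL1 aKO replicates 1, 2, 4 and 5. They were 4 without weights (also with TMM scaling), 68 with TMM scaling, 22 with Xist as a covariate, 20 at a threshold of 0.05, and 425 with TMM scaling and without BMAL1 aKO replicate 3. With the replicate block 7 genes passed and 0 members. The replicate numbers gave no sign of pairing.

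The median change of the members was -0.0623 with TMM scaling and no weights and -0.0679 with TMM scaling and without BMAL1 aKO replicate 3. That of type II cadherins was -0.0816 with TMM scaling and no weights, and -0.17 to -0.29 with 1 library left out. Of 374 values of 17 named genes under alternatives, 347 kept sign and side of the threshold, 10 newly passed it and 17 changed sign. With Xist as a covariate Cdh2 was at -0.0247, Cdh4 at -0.00821 and Pcdhgc4 at -0.00728. Without weights Pcdhb12 was at -0.0154 and Pcdhgc4 at -0.12 (-0.0695 with TMM scaling). With 1 library left out, Cdh2 ran from -0.0251 to 0.14, Cdh4 from -0.0235 to 0.34, Cdh13 from -0.00406 to 0.33, Cdh22 from -0.24 to 0.0647 and Pcdhgc4 from -0.11 to 0.0522. The cause was not tested. The quasi-likelihood test on whole reads that had been planned was not run.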
